A study of Mus musculus with 6 samples.

Results

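Creatine kinase, myoglobin and phosphotransfer genes carry the energy buffer of the heart muscle cell, and 7 of them were examined here among 21887 protein-coding genes of the RefSeq table: Ckm, Ckmt2, Ckb, Ckmt1, Mb, Ak1 and Slc6a8. They were listed by name, and each was given a window of its annotated gene body plus 10 kb on each side. The assay was CUT&RUN, in which an antibody directs a nuclease to cut out DNA for sequencing. The antibody here recognised acetylated lysine 27 of histone H3 (H3K27ac), found at enhancers and promoters in use. The nuclei came from left ventricles of FVB mice aged 8 to 12 weeks and were sorted for PCM-1, a protein at the surface of cardiomyocyte nuclei. In HOM mice Nppa and Nppb, which encode the atrial and B-type natriuretic peptides, had been deleted by CRISPR, and WT mice lacked the deletion. Each genotype had 3 libraries with a peak list each. Whether each library came from its own mouse is not in the labels, so the p-values reflect variation among the 6 libraries, and it may be technical.

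Creatine kinases move a phosphate between ATP and creatine. The mitochondrial isoforms load creatine where ATP is made, and the cytosolic isoforms recover ATP beside the myofibrils and pumps. Ckm and Ckmt2 encode the isoforms of striated muscle, and Ckb and Ckmt1 those best known from brain and other tissues. Myoglobin, from Mb, stores oxygen in muscle. Adenylate kinase 1, from Ak1, forms ATP and AMP from ADP, and Slc6a8 takes creatine into the cell.

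Promoters from RefSeq on GRCm38.p6 (mm10), 250 bases before to 50 bases from each annotated start, matched 6 of the 7 genes. The sequences below show 1 start of each gene with a peak within 1 kb of a start in 5 libraries. Ckb is shown as an isoform with no such peak, and Ckmt1, which also had none, is not shown. Capitals mark matches, on either strand, to the E-box CANNTG, the TATA box TATAAA, the CCAAT box CCAAT, and the MEF2 and CArG motifs. TATAAA can lie inside a MEF2 match. Of 32851 promoters of this length, 72.3% held an E-box, 13.6% a TATA box, 37.4% a CCAAT box, 3.19% a MEF2 match and 1.63% a CArG match.
Ckm, chr7:19410844-19411143, plus strand: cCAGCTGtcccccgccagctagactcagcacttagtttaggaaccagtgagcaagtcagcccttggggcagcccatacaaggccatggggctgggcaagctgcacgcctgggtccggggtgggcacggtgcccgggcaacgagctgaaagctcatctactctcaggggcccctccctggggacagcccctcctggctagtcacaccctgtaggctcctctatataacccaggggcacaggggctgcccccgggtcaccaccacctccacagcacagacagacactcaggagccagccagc
Ckmt2, chr13:91876836-91877135, minus strand: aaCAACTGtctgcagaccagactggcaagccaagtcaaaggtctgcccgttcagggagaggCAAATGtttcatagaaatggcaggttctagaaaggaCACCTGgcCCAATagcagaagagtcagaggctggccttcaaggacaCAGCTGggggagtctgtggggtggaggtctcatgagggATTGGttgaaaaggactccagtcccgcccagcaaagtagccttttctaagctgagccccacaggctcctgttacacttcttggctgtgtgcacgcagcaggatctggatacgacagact
Mb, chr15:77022738-77023037, minus strand: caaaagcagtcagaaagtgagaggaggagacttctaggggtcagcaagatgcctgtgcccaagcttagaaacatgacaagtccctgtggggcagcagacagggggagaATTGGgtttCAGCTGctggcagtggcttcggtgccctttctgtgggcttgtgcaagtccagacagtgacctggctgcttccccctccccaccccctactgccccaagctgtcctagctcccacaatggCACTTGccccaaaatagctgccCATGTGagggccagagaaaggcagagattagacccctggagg
Ak1, chr2:32628140-32628439, plus strand: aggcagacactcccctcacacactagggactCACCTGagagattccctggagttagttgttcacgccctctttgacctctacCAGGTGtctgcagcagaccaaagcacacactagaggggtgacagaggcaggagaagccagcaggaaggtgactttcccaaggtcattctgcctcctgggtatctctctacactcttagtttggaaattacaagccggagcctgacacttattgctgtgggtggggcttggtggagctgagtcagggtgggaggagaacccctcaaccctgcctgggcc
Ckb, chr12:111672289-111672588, minus strand: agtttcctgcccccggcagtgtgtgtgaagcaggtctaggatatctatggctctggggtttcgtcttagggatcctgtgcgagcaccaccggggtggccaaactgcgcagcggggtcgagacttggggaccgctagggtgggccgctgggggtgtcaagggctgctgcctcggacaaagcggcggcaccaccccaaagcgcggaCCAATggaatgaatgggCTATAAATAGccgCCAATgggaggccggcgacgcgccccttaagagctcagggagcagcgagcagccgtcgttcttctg
Ckm held 1 E-box, Ckmt2 4 E-boxes and 2 CCAAT boxes, Mb 3 E-boxes and 1 CCAAT box, and Ak1 2 E-boxes. The MEF2 match among them was in Ckb, at positions -29 to -20 with the start base as 0, where it overlapped the TATA box. A match describes letters and is not evidence of a bound factor.

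The lists differed widely in length. HOM replicates 1, 2 and 3 had 48102, 1462 and 15184 peaks covering 17.2, 0.296 and 4.54 Mb, and WT replicates 1, 2 and 3 had 21340, 72362 and 106605 peaks covering 6.69, 31.6 and 55.7 Mb. Without read counts in the lists, sequencing depth is unknown. HOM replicate 2 stood apart, with 2.44% of all protein-coding windows holding a peak, against 20.5% to 60.4% in the other libraries. It had no peak in any of the 7 windows, and the differences in bp per Mb, the mean isoform differences and the medians of gene lists are also given without it. All 8 cardiomyocyte markers examined (among them Myh6, Tnnt2 and Actc1) had a peak in the window in the 5 other libraries. Fibroblast markers had one at 0 of 6 genes in every library. Endothelial markers had one at 1, 0 and 1 of 6 genes in HOM and 1, 3 and 4 in WT. For 4 smooth muscle markers the counts were 2, 0 and 0 in HOM and 1, 3 and 4 in WT, and for 4 immune markers 2, 0 and 2 in HOM and 1, 2 and 2 in WT. Of 6 skeletal muscle markers, 1, 0 and 0 had a peak in HOM and 1, 1 and 3 in WT. The counts for 4 neural markers were 1, 0 and 0 in HOM and 0, 1 and 3 in WT. The part of such cells in the results was not tested, and less signal per cell cannot be told apart from fewer marked cells.

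In 5 libraries peaks lay within 1 kb of a start of the muscle creatine kinases, Mb and Ak1, and in none at those of the non-muscle isoforms. Slc6a8 had no start among the promoters used and was not assessed for this. Ckm, Ckmt2, Mb and Ak1 each had a peak within 1 kb of an annotated start in HOM replicates 1 and 3 and in all 3 WT libraries. Ckb and Ckmt1 had none there in any library. Over 32851 annotated starts, such a peak was present at 18.5%, 0.335% and 6.83% in HOM replicates 1, 2 and 3 and at 9.72%, 25.9% and 34.0% in WT replicates 1, 2 and 3. These shares count single starts in single libraries. The genes were counted by any of their starts, with 3 at Mb and 4 at Ak1, so the shares are not a like measure. The share of genes with such a peak in all 5 libraries was not computed. In HOM replicate 3, 90 bp were covered within 1 kb of the Mb start at 77022787. Some bases were called in each of the 5 libraries other than HOM replicate 2 at Ckm, Ckmt2, Mb, Ak1 and Slc6a8, and at none of the bases in the Ckb and Ckmt1 windows. Those in the Slc6a8 window lay nearer to the neighbouring gene Bcap31, and those in the Mb window lay at least 4434 bp from its close starts. Over all protein-coding windows, 10.7% held such shared bases.

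**Figure D1:**
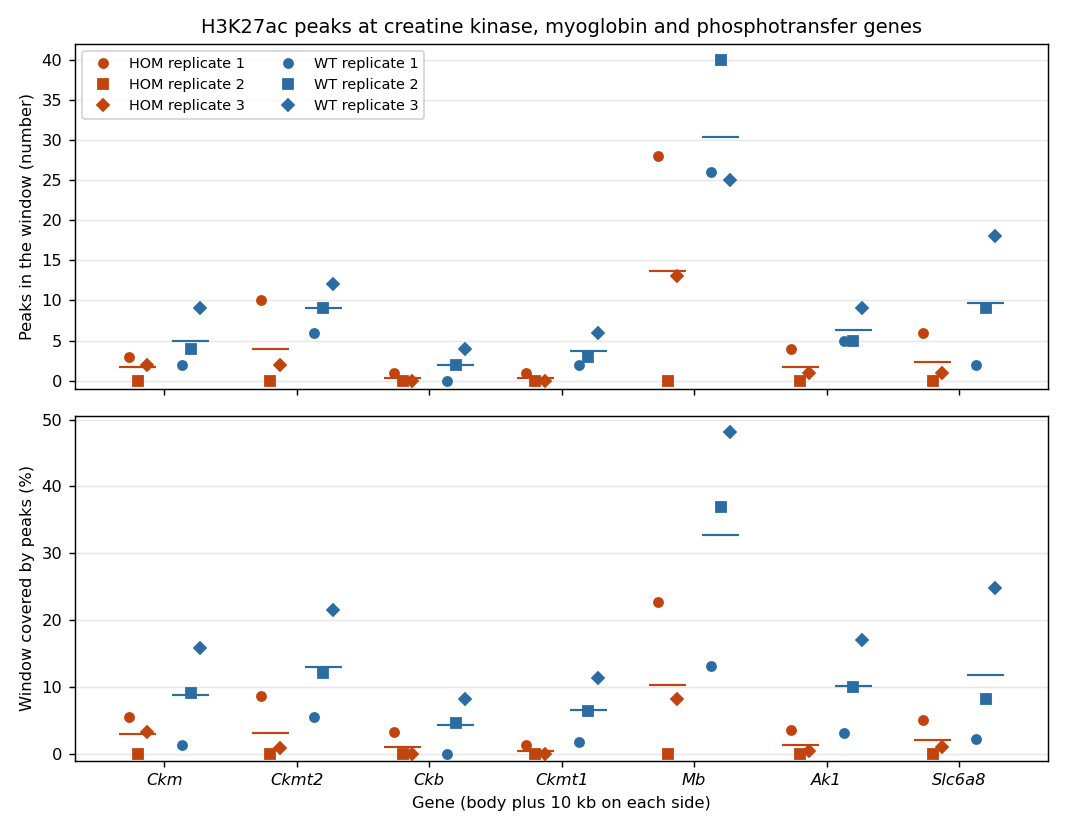
Peaks per window (upper panel, number) and the share of the window covered by them (lower panel, %) for each gene; each point is a library, HOM left of WT, and lines are the means of 3 libraries. Mb stands above the other genes in every library with peaks, and HOM replicate 2 lies at 0 throughout.

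Ckm, the cytosolic creatine kinase of muscle (gene ID 12715), lies at positions 19411094 to 19421583 of chromosome 7. Its window held 3, 0 and 2 peaks in HOM replicates 1, 2 and 3, against 2, 4 and 9 in WT replicates 1, 2 and 3. They covered 1691, 0 and 988 bp in HOM and 417, 2793 and 4832 bp in WT. HOM replicates 1 and 3 thus lay between the lowest and the middle WT library, and the genotypes overlapped. The peaks formed a block from upstream of the start into the gene. In HOM replicate 1 a peak 1308 bp wide ran from 19409340 to 19410647, and 2 narrower ones, 217 and 166 bp wide, lay inside the gene. HOM replicate 3 had peaks of 374 and 614 bp, both upstream. WT replicate 1 had 214 bp upstream and 203 bp inside the gene. In WT replicate 2 a peak of 1715 bp reached from 19409349 to 19411063. WT replicate 3 filled the stretch almost completely, with 1878 of the 2 kb upstream of the start and 1562 of the 2 kb downstream covered. The 199 bp called in all 5 libraries, positions 19409663 to 19409861, lay 1233 to 1431 bp upstream of the start. Mouse Ckm is known for an upstream enhancer used in muscle, and the coordinates of that enhancer were not used here.

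Ckb, the cytosolic isoform known from brain (gene ID 12709), lies at positions 111669355 to 111672338 of chromosome 12. Its window held 1, 0 and 0 peaks in HOM replicates 1, 2 and 3 and 0, 2 and 4 in WT replicates 1, 2 and 3. Most of them belonged to a neighbour by distance. The peak of HOM replicate 1, at 111677133 to 111677895, lay below the start of Trmt61a (111678105), a tRNA methyltransferase gene. In WT replicates 2 and 3 peaks of 754 and 906 bp overlapped that same place, and peaks of 388 and 613 bp lay inside Trmt61a. The peaks nearer to Ckb than to another gene were 2 in WT replicate 3, 197 and 181 bp wide, at the downstream end of the gene. No base within 2 kb of the Ckb start was covered in any library.

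**Figure D2:**
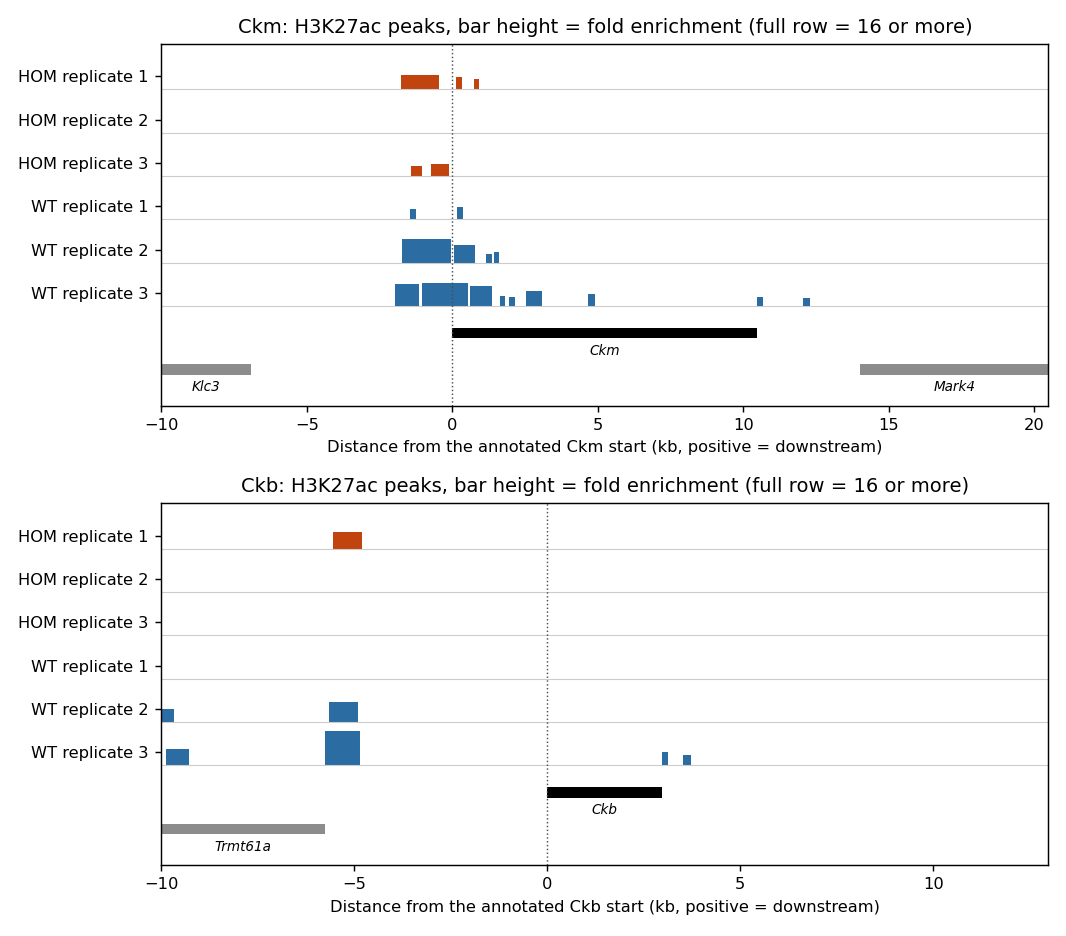
Peaks at Ckm (upper panel) and Ckb (lower panel) by distance from the annotated start (kb, dotted line), with 1 row per library and HOM rows above WT rows; bar height is the authors' fold enrichment, with a full row at 16. Ckm peaks gather around the start in 5 libraries, while those in the Ckb window lie beside or inside Trmt61a or at the end of Ckb.

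Ckmt2, the mitochondrial creatine kinase of striated muscle (gene ID 76722), lies at positions 91853386 to 91876923 of chromosome 13 and is read from the minus strand. Its window held 10, 0 and 2 peaks in HOM replicates 1, 2 and 3, against 6, 9 and 12 in WT replicates 1, 2 and 3. The covered length was 3768, 0 and 397 bp in HOM and 2423, 5286 and 9411 bp in WT. HOM replicate 1 was above WT replicate 1, and HOM replicate 3 was below all WT libraries. Around the start at 91876885, the same stretch was broken into several peaks in some libraries and merged in others. HOM replicate 1 had 8 of its 10 peaks on the gene, from 166 to 616 bp wide. HOM replicate 3 had 2 peaks, of 225 and 172 bp. WT replicate 3 had a single peak of 6591 bp from 91872454 to 91879044, with a fold of 14.8, across the start. Bases called in all 5 libraries lay on both sides of the start, 365 to 536 bp upstream of it and 1575 to 1714 bp downstream.

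Ckmt1, the mitochondrial isoform of other tissues (gene ID 12716), lies at positions 121357773 to 121363737 of chromosome 2. Its window held 1, 0 and 0 peaks in HOM replicates 1, 2 and 3, against 2, 3 and 6 in WT replicates 1, 2 and 3. No peak touched the gene in any library. All but 1 lay in the body of Ppip5k1, an inositol phosphate kinase gene on the minus strand, whose 5′ side faces Ckmt1 at a distance of 2120 bp. The other, of 171 bp in WT replicate 3, lay in Strc.

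**Figure D3:**
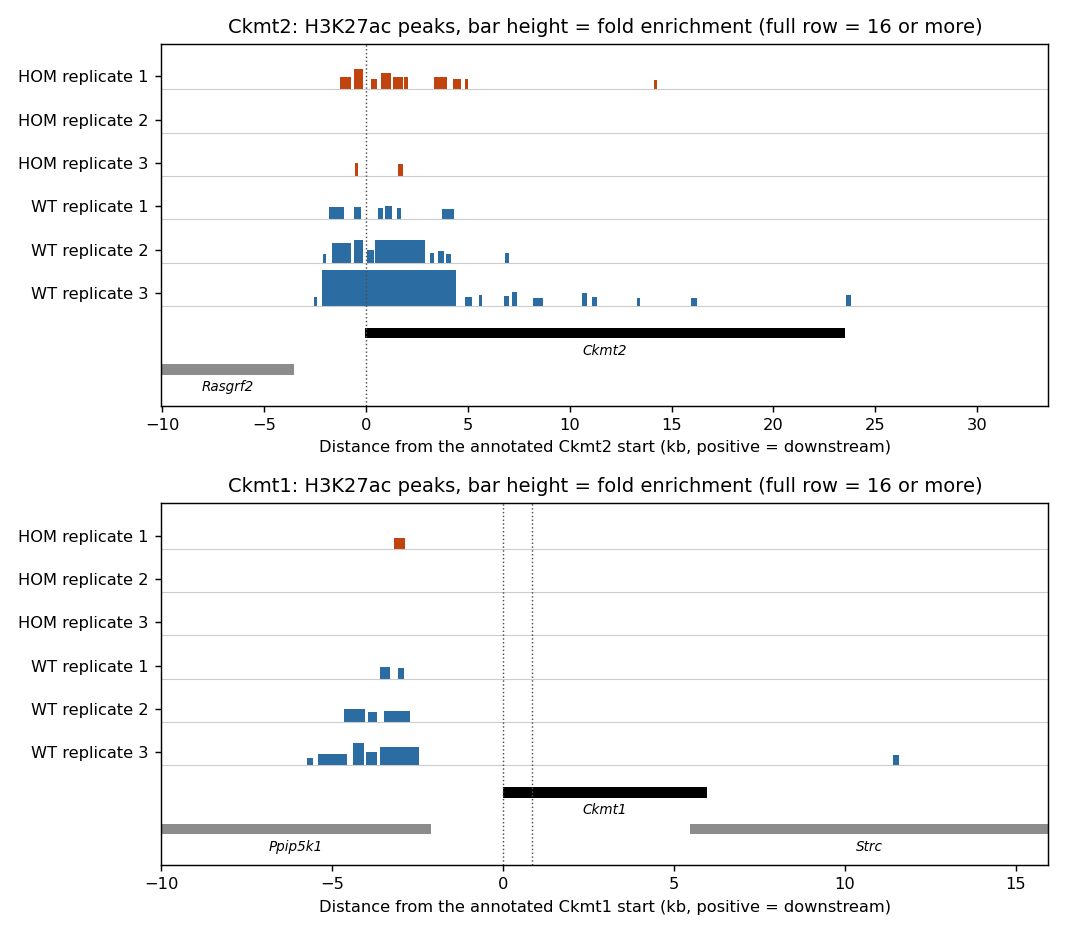
Peaks at Ckmt2 (upper panel) and Ckmt1 (lower panel) by distance from the annotated start (kb, dotted lines), drawn with HOM rows above WT rows and bar height as fold enrichment. Peaks flank the Ckmt2 start in 5 libraries, and the Ckmt1 gene is empty in all 6.

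The muscle isoform window was covered to a larger share than its counterpart in the 5 libraries with any peak. Ckm covered 5.55%, 0% and 3.24% of its window in HOM replicates 1, 2 and 3, where Ckb covered 3.32%, 0% and 0%. In WT replicates 1, 2 and 3 Ckm covered 1.37%, 9.16% and 15.8%, and Ckb 0%, 4.71% and 8.25%. The mean difference was 3.15 ± 2.66 percentage points (SD, n = 6), with a two-sided exact sign-flip permutation p of 0.0625. Ckmt2 covered 8.65%, 0% and 0.912% in HOM, where Ckmt1 covered 1.29%, 0% and 0%, and 5.57%, 12.1% and 21.6% in WT, where Ckmt1 covered 1.85%, 6.37% and 11.4%. The mean difference was 4.67 ± 3.91 points (SD, n = 6), with an exact sign-flip permutation p of 0.0625. Of the 2 pairs compared neither passed 0.05, and with HOM replicate 2 at 0 the smallest p possible was 0.0625. Without HOM replicate 2 the mean differences were 3.78 and 5.60 points. Windows with 20 kb flanks turned the first difference to -1.22 points (exact permutation p = 0.375), and over the gene body with 1 kb flanks it was 8.76 points. The difference for Ckm and Ckb was 1.82 ± 1.66 points in HOM and 4.47 ± 3.11 in WT (SD, n = 3 each), an exact permutation p of 0.3 between genotypes. For Ckmt2 and Ckmt1 it was 2.76 ± 4.01 in HOM and 6.58 ± 3.35 in WT, also with an exact permutation p of 0.3.

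Mb, the myoglobin gene (gene ID 17189), had the most bases under peaks of the 7 in each library with peaks. It is annotated from 77015487 to 77050668 of chromosome 15, with a distal start at 77050668 that lies inside Apol6 and 2 close starts at 77022787 and 77022727. Its window held 28, 0 and 13 peaks in HOM replicates 1, 2 and 3, against 26, 40 and 25 in WT replicates 1, 2 and 3. They covered 12600, 0 and 4580 bp in HOM and 7211, 20363 and 26539 bp in WT. HOM replicate 1 thus had more peaks and more covered bases than WT replicate 1, and the genotypes overlapped. WT replicate 3 had the fewest peaks in WT and the longest cover, since its peaks were wider, with a median of 713 bp against 235 and 303 bp in WT replicates 1 and 2. As a share of the window this was 22.8%, 0% and 8.30% in HOM and 13.1%, 36.9% and 48.1% in WT. Of all protein-coding windows, 99.7% were covered to a smaller share in HOM replicates 1 and 3, and 99.8%, 99.7% and 99.5% in WT replicates 1, 2 and 3. The Mb window ranked 76 and 71 in those HOM libraries, and 44, 60 and 106 in the WT libraries, among 21887.

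For description, the Mb window was divided at the gene ends and at the upper of the close starts. The 10 kb below the gene, downstream of it, are almost wholly taken up by the lncRNA gene Gm52199 (77003559 to 77015209). There peaks covered 35.4%, 0% and 10.1% in HOM replicates 1, 2 and 3 and 18.9%, 62.1% and 87.1% in WT replicates 1, 2 and 3. Between the lower end of the gene and the upper of the close starts, a stretch of 7301 bp, peaks covered 2595, 0 and 411 bp in HOM and 1165, 3953 and 5780 bp in WT. The part of the gene above these starts was covered to 23.2%, 0% and 11.3% in HOM and 14.9%, 36.0% and 42.6% in WT. In each of these 3 parts HOM replicate 1 was above WT replicate 1 and below WT replicates 2 and 3. The 10 kb above the gene held 1 peak each in WT replicates 2 and 3, of 165 and 171 bp, and none in the other libraries. No base within 1 kb of the distal start was covered in any library. Bases called in all 5 libraries with peaks came to 2129 bp in 9 intervals, against 199 bp at Ckm. Of these 9, 4 lay 4434 to 6672 bp upstream of the close starts, 4 lay 13613 to 15801 bp upstream, and 1 lay 12571 to 12877 bp downstream, inside Gm52199. At the promoter of these starts, shown above, 128, 0 and 0 of its 300 bases were covered in HOM replicates 1, 2 and 3 and 0, 135 and 179 in WT replicates 1, 2 and 3.

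**Figure D4:**
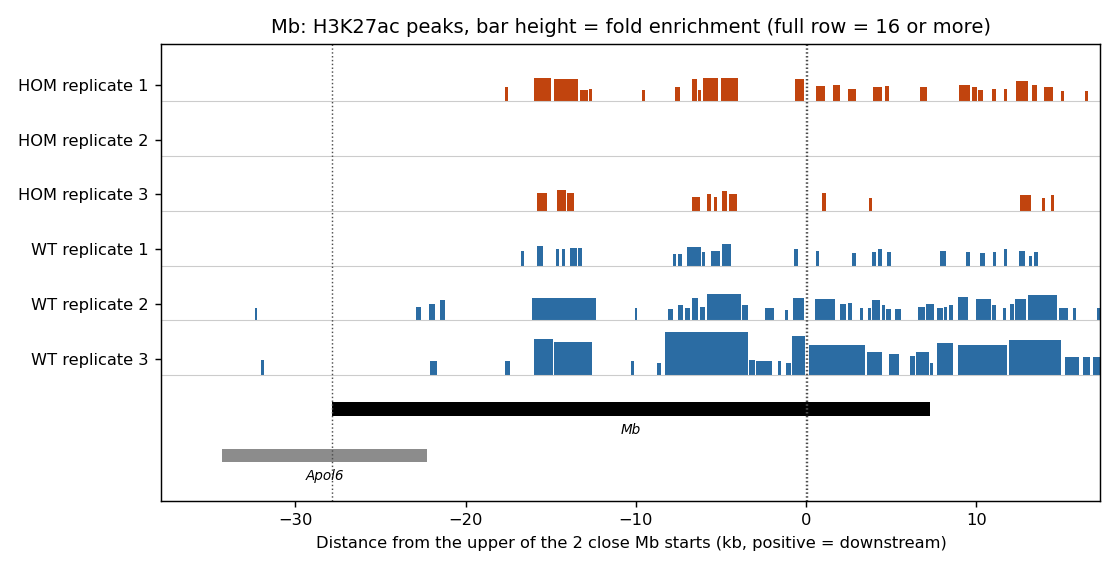
Peaks in the Mb window by distance from the upper of the close Mb starts (kb, dotted line at 0; the distal start is the other dotted line), with HOM rows above WT rows and bar height as fold enrichment (full row at 16). The 2 groups upstream of the close starts and the stretch downstream recur in 5 libraries, and the surroundings of the distal start are empty.

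Ak1, adenylate kinase 1 (gene ID 11636), lies at positions 32621758 to 32635058 of chromosome 2 and has 4 annotated starts. Its window held 4, 0 and 1 peaks in HOM replicates 1, 2 and 3, against 5, 5 and 9 in WT replicates 1, 2 and 3. They covered 1219, 0 and 171 bp in HOM and 1069, 3379 and 5673 bp in WT. The peak numbers were lower in every HOM than in every WT library, as at 2.11% of all protein-coding windows, in lists of unequal length. The covered lengths overlapped. Peaks gathered behind the start at 32625437 and at the start at 32628390. The first of these places was called in HOM replicate 1 and in all WT libraries, and the second in HOM replicate 3 as well. The 74 bp shared by the 5 libraries lay 97 to 170 bp downstream of the start at 32628390. At the lowest annotated start, 32621758, peaks within 1 kb were called in WT replicates 2 and 3 alone, next to St6galnac6, which ends 949 bp below Ak1.

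Slc6a8, the creatine transporter gene (gene ID 102857), lies at positions 73673133 to 73682502 of the X chromosome. Its window held 6, 0 and 1 peaks in HOM replicates 1, 2 and 3, against 2, 9 and 18 in WT replicates 1, 2 and 3. The cover was 1487, 0 and 321 bp in HOM and 655, 2417 and 7286 bp in WT, and the genotypes overlapped. Peaks on the gene itself numbered 0, 0 and 0 in HOM and 0, 1 and 5 in WT. The stretch shared by 5 libraries, 107 bp from 73685262, lay between Slc6a8 and Bcap31 and nearer to Bcap31. Bcap31 is read from the minus strand, with an annotated start at 73716204, and its body ends at 73686178. By distance, 6, 0 and 1 of the peaks in HOM and 1, 7 and 9 in WT belonged to Bcap31 rather than Slc6a8. The sex of the mice is not in the labels. Below 80 Mb of the Y chromosome, 112 peaks were called in HOM replicate 1 and 111 in WT replicate 1, against 1 to 5 in each other library. Relative to the length covered genome wide, the Slc6a8 window had 86.5 bp per Mb in HOM replicate 1 and 97.9 in WT replicate 1. In the other 4 libraries it had 0 and 70.7 in HOM replicates 2 and 3 and 76.4 and 131 in WT replicates 2 and 3.

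Peak strength was ranked within each list by the authors' fold enrichment at the summit. The strongest Mb peak stood 2.62% and 3.58% from the top in HOM replicates 1 and 3, and 3.31%, 3.81% and 0.958% in WT replicates 1, 2 and 3. Its fold was 7.55 and 6.72 in HOM and 6.86, 8.46 and 13.9 in WT. Mb was thus within the top 5% of every list that marked it. This was the best of 28 and 13 peaks in HOM and of 26, 40 and 25 in WT. A window with more peaks has more draws for a high rank. The median Mb peak stood 45.1% and 17.1% from the top in HOM and 35.2%, 36.9% and 24.3% in WT. The strongest Ckm peak ranked 5459 of 48102 and 4440 of 15184 in HOM replicates 1 and 3, or 11.3% and 29.2% from the top, and 21.8%, 1.56% and 6.38% in WT. For Ckmt2 the values were 1.26% and 17.1% in HOM and 13.7%, 2.11% and 0.583% in WT. Ak1 stood at 3.74% and 47.6% in HOM and 13.7%, 11.1% and 2.20% in WT, and Slc6a8 at 22.7% and 47.6% in HOM and 13.7%, 11.1% and 4.53% in WT. The Ckb window was at 5.50% in HOM replicate 1 and at 5.04% and 0.958% in WT replicates 2 and 3, each time through the peak beside Trmt61a. Ckmt1 was at 45.1% in HOM replicate 1 and at 35.2%, 28.6% and 7.55% in WT, through peaks in Ppip5k1. Ranks from lists of unequal length show no change between genotypes.

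**Figure D5:**
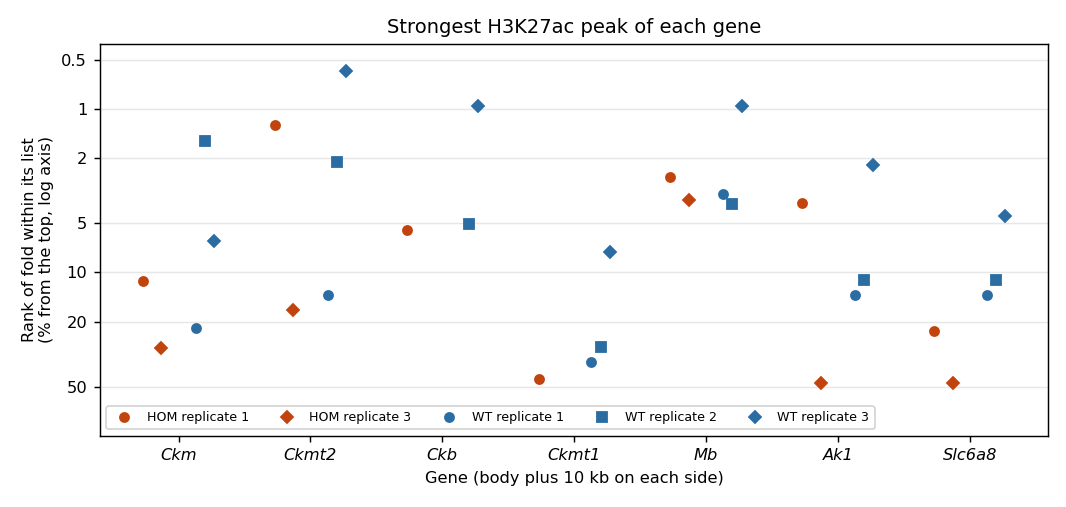
Rank of the strongest peak in each window by fold enrichment within its own list (% from the top, log axis with the strongest at the top), HOM left of WT; HOM replicate 2 had no peak in these windows. Mb, which had the most peaks to take the strongest from, stays within the top 5% in 5 libraries, while the other genes spread from 0.583% to 47.6%.

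Between genotypes, no difference passed a test, and none could with 3 libraries against 3, since a two-sided exact permutation p cannot go below 0.1. The comparison used covered bp in the window per Mb covered genome wide. Mb had 733, 0 and 1008 bp per Mb in HOM replicates 1, 2 and 3 and 1078, 644 and 477 in WT replicates 1, 2 and 3. The mean was 580 ± 521 in HOM and 733 ± 310 in WT (SD, n = 3 each), a difference of -152 (exact permutation p = 0.8). It turned to 138 without HOM replicate 2 and to 19.9 without WT replicate 1. Ckm had 98.3, 0 and 218 bp per Mb in HOM and 62.3, 88.3 and 86.8 in WT. Scaled in this way, HOM replicates 1 and 3 were above every WT library. Without HOM replicate 2, 592 of the 21887 windows were higher in every HOM library. In lists cut to the 15184 peaks with the smallest p-values, Ckm had 153 and 218 bp per Mb in HOM replicates 1 and 3. WT replicates 1, 2 and 3 then had 38.5, 172 and 132, so the genotypes overlapped. In the full lists Ckm averaged 105 ± 109 in HOM and 79.2 ± 14.6 in WT (SD, n = 3 each, exact permutation p = 0.7). The Ckm difference of 26.1 was 78.8 without HOM replicate 2 and turned to -30.0 without HOM replicate 3. Ckmt2 averaged 102 ± 110 in HOM and 233 ± 112 in WT (SD, n = 3 each, exact permutation p = 0.3). Without HOM replicate 2 the Ckmt2 difference of -131 was -79.5, and without WT replicate 1 it was -66.0. Ckb averaged 14.8 ± 25.6 in HOM and 22.8 ± 19.7 in WT (SD, n = 3 each, exact permutation p = 1), and Slc6a8 52.4 ± 46.0 in HOM and 102 ± 27.4 in WT (SD, n = 3 each, exact permutation p = 0.2). Without HOM replicate 2 their differences, -7.99 and -49.4, were -0.596 and -23.2.

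At Ckmt1 and Ak1 every HOM library was below every WT library. Ckmt1 had 19.5, 0 and 0 bp per Mb in HOM replicates 1, 2 and 3 and 71.9, 52.3 and 53.0 in WT replicates 1, 2 and 3, and Ak1 70.9, 0 and 37.6 in HOM and 160, 107 and 102 in WT. The difference was -52.6 for Ckmt1 and -86.7 for Ak1, each with an exact permutation p of 0.1, and with a Benjamini-Hochberg adjusted value of 1 over all 21887 windows in this exact permutation test. Without HOM replicate 2 they were -49.3 and -68.6. The same non-overlap was found at 5.32% of all protein-coding windows, and the reverse at 0.164%. These shares include 8296 windows without a peak in any library, which could show neither pattern. At Ak1 the genotypes overlapped with 20 kb flanks (exact permutation p = 0.3), with the stronger 50% of peaks and at a −log10 q of at least 5 (exact permutation p = 0.4 for both), and unscaled (exact permutation p = 0.2). At Ckmt1 they overlapped at that q (exact permutation p = 0.4), and with 1 kb flanks no peak was left. The stronger 50% and the lists of equal length were taken by the authors' p-value of each peak, not by fold. When the 15184 peaks with the smallest p-values in each list were used, without HOM replicate 2, the genotypes overlapped at both genes. Ckmt1 then had 0 and 0 bp per Mb in HOM replicates 1 and 3 and 91.3, 0 and 59.4 in WT, and Ak1 143 and 37.6 in HOM and 128, 151 and 137 in WT.

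The number of the 7 windows with a peak was 7, 0 and 5 in HOM replicates 1, 2 and 3, against 6, 7 and 7 in WT replicates 1, 2 and 3. A peak in each of the 5 libraries other than HOM replicate 2 was found at 5 of the 7, against 16.5% of all protein-coding windows. Slc6a8 is among these 5, although all peaks of its window in HOM lay nearer to Bcap31. None of the 7 was marked in the 3 WT libraries and unmarked in HOM, a pattern of 1.21% of all windows. The share of all protein-coding windows with a peak was 40.6%, 2.44% and 20.5% in HOM and 26.2%, 50.8% and 60.4% in WT. Counting only peaks nearer to the gene itself than to any other protein-coding gene, the numbers were 4, 0 and 4 in HOM and 5, 5 and 6 in WT. In the lists of 15184 peaks, Mb held 10 and 13 peaks in HOM replicates 1 and 3 and 21, 11 and 10 in WT. Ckm held 1 and 2 in HOM and 1, 2 and 3 in WT, and Ckmt2 3 and 2 in HOM and 6, 3 and 1 in WT. At this length Ckm, Ckmt2, Mb and Ak1 were marked in all 5 libraries, as were 12.1% of all protein-coding windows.

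The genes with the most similar profile over the 6 libraries were found by the summed absolute difference in the share of the window covered. For Mb they were Fbxo32, a muscle ubiquitin ligase gene also on chromosome 15 (6.73 points), Ndufb7, a subunit gene of respiratory complex I (7.94), and Fam174b (8.83). Fbxo32 was covered to 23.5%, 0% and 4.85% in HOM replicates 1, 2 and 3 and to 12.2%, 36.8% and 49.8% in WT. For Ckm they were Dnaaf3 (2.37), the methionine adenosyltransferase gene Mat2a (2.51) and Myrf (2.52), and for Ckmt2 Gm29733 (2.75), Usp13 (2.96) and Nmnat1 (3.29). All libraries entered these sums, so they also follow list length.

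Other genes of phosphate transfer were described by list. Of all protein-coding windows, 40.6%, 2.44% and 20.5% had a peak in HOM replicates 1, 2 and 3. In WT replicates 1, 2 and 3 the shares were 26.2%, 50.8% and 60.4%. The counts below follow lists of unequal length and were not tested against these shares. Of 6 genes of mitochondrial nucleotide exchange, 4, 0 and 4 had a peak in the window in HOM replicates 1, 2 and 3 and 4, 5 and 5 in WT replicates 1, 2 and 3. Slc25a4, the adenine nucleotide carrier of heart and muscle, had 11, 0 and 3 peaks in HOM and 5, 12 and 15 in WT. The channel genes of the outer membrane, Vdac1, Vdac2 and Vdac3, were marked in the same 5 libraries, and Slc25a31 in none. Of the 2 creatine synthesis genes, Gamt was marked in 5 libraries, with 8, 0 and 8 peaks in HOM and 4, 10 and 14 in WT, and Gatm in none.

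Of 8 other adenylate kinase genes, 6, 0 and 3 were marked in HOM and 3, 7 and 7 in WT, to be read beside the shares of all windows above. Ak3 and Ak4, whose products work in mitochondria, were among those marked in 5 libraries, and Ak8 was marked in none. Ak4 alone of the 8 was lower in every HOM than in every WT library, a pattern of 5.32% of all windows, with means of 30.6 bp per Mb in HOM (45.8 without HOM replicate 2) and 94.6 in WT. For 10 genes of AMP kinase and AMP deaminase the counts were 8, 0 and 4 in HOM and 7, 9 and 9 in WT. Prkaa2, the catalytic subunit of AMP kinase best known from muscle, had 32, 0 and 11 peaks in HOM and 20, 32 and 29 in WT. Prkab1 and Prkab2 were also marked in 5 libraries, and Ampd2 in none. Prkag1 and Prkag2 were lower in every HOM than in every WT library, as were 5.32% of all windows, and both were at 0 in HOM replicates 2 and 3.

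Of 7 nucleoside diphosphate kinase genes, 4, 0 and 3 were marked in HOM and 2, 5 and 7 in WT, with Nme1 in 5 libraries. Over all protein-coding windows the share with a peak was 40.6%, 2.44% and 20.5% in HOM and 26.2%, 50.8% and 60.4% in WT. Of 6 other globin genes, 0, 0 and 0 were marked in HOM and 0, 1 and 1 in WT. Hba-a1, Hba-a2, Hbb-bs and Hbb-bt had no peak in any library, and the globin with a peak was Cygb, in WT replicates 2 and 3. The median difference in bp per Mb, HOM minus WT, was 7.90 for creatine synthesis, -18.0 for adenylate kinases, -3.98 for nucleoside diphosphate kinases, -55.2 for nucleotide exchange, -31.1 for AMP kinase and AMP deaminase, and 0 for globins. Over all protein-coding windows it was -1.24, and 8296 of these had no peak in any library. The creatine synthesis median came from Gamt alone (15.8 bp per Mb), since Gatm, the only other gene of that list, was at 0. Without HOM replicate 2, a choice made after seeing the data, the medians were 55.1 for creatine synthesis, -4.96 for adenylate kinases, -3.98 for nucleoside diphosphate kinases, -4.60 for nucleotide exchange, -19.4 for AMP kinase and AMP deaminase, and 0 for globins and for all windows.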

How the data were processed

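CUT&RUN for H3K27ac was analysed from 6 peak lists, 3 per genotype, deposited per library without pooling. Per the submitters' processing notes, BWA, MACS2 and mm10 were used. Tool versions were not given in the sources used here. Each deposited list holds the authors' values per peak: a score, the fold enrichment (a ratio), and p-value and q-value as −log10. Fold values were used only to rank and describe peaks within a list, with equal folds sharing the better rank. Genes, starts and promoters came from RefSeq on GRCm38.p6, the assembly mm10 names. Positions are 1-based. Groups and replicate numbers came from sample titles.

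Covered length was counted per window and set against the length covered genome wide. Differences were tested by two-sided exact permutation over the 20 assignments of libraries, adjusted over all windows, and isoform pairs by exact sign flips. No filter on low values was used, and all 7 genes entered. The genes and lists were chosen with earlier results of these data known. All 7 genes were named by rule, with up to 4 genes per list marked in 5 or 6 libraries and up to 4 in none, and the 3 most similar genes each for Ckm, Ckmt2 and Mb. Ak4, Prkag1, Prkag2 and Cygb were named after their values were seen. The values of 1 listed gene are not reported here. Calculations were tested on simulated data. Scripts ran on scipy 1.17.1, numpy 2.4.6 and pandas 2.3.3 under Python 3.11.15, and matplotlib 3.10.9 drew the figures.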

Additional observations from a re-analysis of the deposited data

How the results depend on the processing

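Alternatives changed 1 choice at a time, except that lists at equal length also left out HOM replicate 2. Wherever lists were shortened to their stronger peaks, these were chosen by the authors' p-value and not by fold. Of 236 values, 15 turned in sign. Another 20 fell to 0 or, for counts of windows, moved beyond 1.5 times. The other 201 kept their sign or, for counts of windows, stayed within 1.5 times, and no tested value crossed 0.05. Some of them changed several-fold in size. No test could pass 0.05 in the main comparisons, and no genotype test could in the alternatives, so staying above 0.05 there is no result. A direction that held is no evidence of a difference. The causes of turned values were not tested except where the construction shows them. Differences are HOM minus WT in bp per Mb unless stated.

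With 1 kb flanks, or counting only peaks nearer to the gene, the Ckmt1 difference was 0, since its peaks lie in neighbours. With 20 kb flanks Ckm minus Ckb was -1.22 points and its genotype difference 1.93. At a −log10 q of at least 5, Ckm gave -24.3 and Mb 33.4. With lists limited to the shortest, Ckm gave -220, Mb 325, and Ckmt1, Ak1 and Slc6a8 0, with few peaks left. At equal length without HOM replicate 2, Ckb gave 14.6. Unscaled, Ckm gave -1788 bp. Between the libraries with peaks on the Y chromosome (HOM replicate 1 and WT replicate 1), Ckb gave 44.4, the genotype differences of the pairs were 0.859 points (Ckm minus Ckb) and 3.65 points (Ckmt2 minus Ckmt1), and the difference in windows with a peak was 1, against -2.67 in all libraries.

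Windows higher in every HOM library numbered 36, and 17 with the stronger 50% of peaks, 16 at that q, 11 at the shortest length, 510 at equal length without HOM replicate 2 and 0 unscaled. Windows lower in every HOM library numbered 1164, and 461 at that q, 87 at the shortest length, 615 at equal length and 764 unscaled. Leaving out each library in turn gave 41 to 592 higher and 1203 to 5005 lower windows, and with fewer libraries either pattern is met more easily.

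Leaving out each library gave -30.0 to 78.8 at Ckm, -189 to -66.0 at Ckmt2, -22.8 to -0.596 at Ckb, -59.1 to -46.2 at Ckmt1, -367 to 138 at Mb, -104 to -68.2 at Ak1 and -66.4 to -23.2 at Slc6a8. Ckm minus Ckb was 2.26 to 3.78 points and Ckmt2 minus Ckmt1 3.55 to 5.60, and their genotype differences -4.20 to -1.09 and -6.12 to -1.98. The difference in windows with a peak was -4.17 to -0.667.

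With the replicate numbers as a block, the differences equal those without it (-86.7 at Ak1 and -52.6 at Ckmt1), and the smallest exact sign-flip permutation p over 3 pairs is 0.25. The labels do not say what a shared number marks, so the block pairs the libraries by number alone.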
